A study of Mus musculus with 9 samples.

Results

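Expression of the genes that store and burn carbohydrate in skeletal muscle was followed in tibialis anterior, a fast muscle of the lower leg, when androgen was removed and when it was replaced. The set was drawn up by name and holds 37 genes of glycogen synthesis and breakdown, of the steps of glycolysis, and of glucose and lactate transport. These 37 symbols occupy 38 rows among the 14300 protein-coding genes listed for every library, because Aldoa is listed under 2 gene identifiers. The set was listed by name and not by a cut on measured values, but earlier results of these data were known when it was chosen. RNA was taken from males of strain C57BL/6J, with 3 libraries for each of 3 groups: Control, orchiectomised (ORX, testes removed) and orchiectomised with dihydrotestosterone (ORX+DHT), all 4 weeks after treatment. All groups share strain and sex, and the labels describe no allele or transgene. The age of the mice and the dose and route of dihydrotestosterone are not given in the sources used here. The Control libraries are named sham in the deposited counts, but no procedure in Control mice is described. The libraries are labelled as biological replicates, but nothing states that each came from its own animal, so p-values measure the spread between these libraries.

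Muscle takes up glucose through the insulin-responsive transporter encoded by Slc2a4, and hexokinase traps it as glucose 6-phosphate, which is either stored as glycogen or sent down glycolysis. During contraction glycogen phosphorylase (Pygm), switched on by phosphorylase kinase, releases glucose units, and the later steps of the pathway turn them into pyruvate. Lactate dehydrogenase converts pyruvate to lactate, and the monocarboxylate transporter of fast fibres (Slc16a3) exports it. Dihydrotestosterone is a potent androgen that acts through the androgen receptor, a transcription factor present in muscle fibres.

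Libraries held 1340209 to 1682235 reads over the listed genes, and 12398 to 13000 genes had at least 1 read. The labelled tissue was checked against marker genes, and 6 of 7 skeletal muscle markers had a mean of at least 10 normalised counts (reads divided by a library's scaling factor), with Tnnc2 the exception at 1.11 to 4.91. Replicates of every group differed by more than sampling noise. Control replicate 1 stood apart from Control replicates 2 and 3 in a way that followed transcript length. Across 8620 genes, which are not independent replicates, the log2 ratio of Control 1 to the mean of the other controls had a Pearson correlation of -0.58 with log2 transcript length and a Spearman correlation of -0.61. The median ratio was 0.84 for transcripts under 1000 bases and -0.43 for those of 5000 bases or more.

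Several glycolytic transcripts are short, so this library bears directly on the set. Among the 34 member rows with a mean of at least 10, Control 1 was the highest of the 3 controls for 21 and the lowest for 9, and it was the highest of all 9 libraries for 16. It exceeded the mean of the other controls by more than 1.5-fold for 7 rows and fell below it by that much for 3. The log2 ratio was 1.03 for Pgam2, 0.89 for Eno3, 0.73 for Tpi1 and 1.17 for Fbp2. It was -0.62 for Ppp1r3a and -0.48 for Phka1, which have long transcripts. The lowest ratios were those of low genes, at -0.999 for Hk1 and -0.90 for the second Aldoa row, whose transcript of 741 bases is short, so that this row did not follow the length pattern. The part of transcript length in the differences from Control was not tested beyond giving each value with and without Control 1 and with a length correction.

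**Figure D1:**
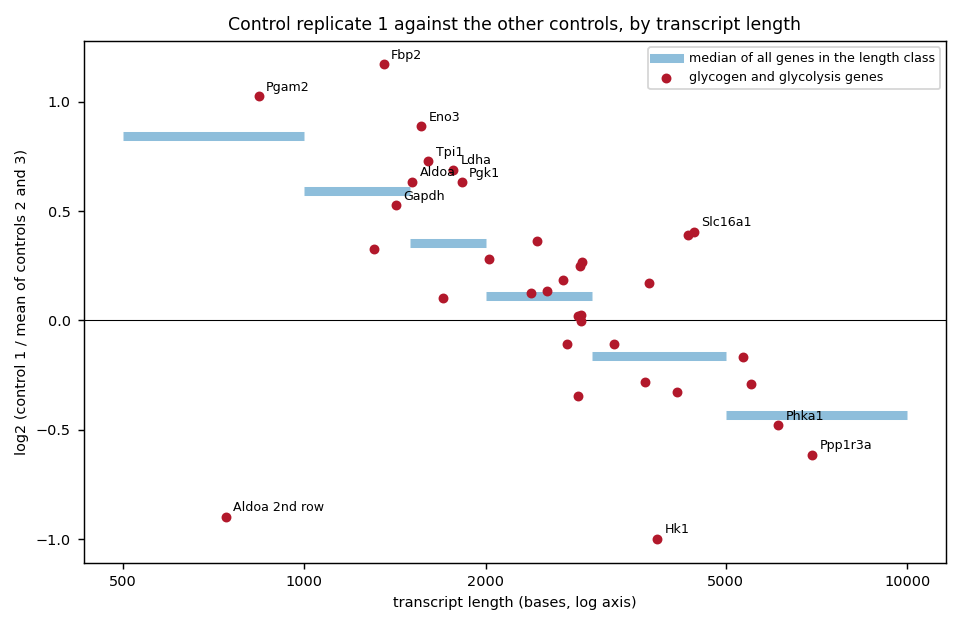
Log2 ratio of Control replicate 1 to the mean of Control replicates 2 and 3 (vertical axis) against transcript length in bases (horizontal log axis). Points are the 34 member rows with a mean of at least 10, and bars are medians of all genes in a length class, which go from 0.84 below 1000 bases to -0.43 at 5000 bases and over.

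Levels between genes were compared per 1000 bases of transcript. Aldoa, the muscle aldolase that splits fructose bisphosphate, led the set at 21417 normalised counts per 1000 bases in Control muscle, against 16570 after ORX and 19483 after ORX+DHT. The next highest in ORX muscle were Eno3 (muscle enolase, 5598 per 1000 bases), Pygm (4564), Pgam2 (muscle phosphoglycerate mutase, 3078) and Pfkm (muscle phosphofructokinase, 2946). Aldoa took 1.72% to 2.54% of all listed reads in a library. All members together took 7.68%, 6.41% and 6.12% of listed reads in Control libraries, 5.81%, 6.09% and 6.14% in ORX and 6.61%, 6.32% and 6.77% in ORX+DHT. The ORX and ORX+DHT ranges did not overlap, while 1 Control library lay within the ORX range. Some members were scarce. The brain aldolase Aldoc had 0 or 1 read in any library, and Pgam1, Pgm2 and Ppp1r3d, the last of which targets a phosphatase to glycogen, also had means under 10 and were not tested. The Pgm2 row is ENSMUSG00000029171. The abundant phosphoglucomutase of these libraries, which joins glycogen to glycolysis, is listed as Pgm1 (ENSMUSG00000025791) and was not in the set. Mean normalised counts of Pgm1 were 1985 for Control, 1597 after ORX and 1905 after ORX+DHT. Its log2 fold change was -0.31 in ORX against Control (adjusted p 0.69 by limma) and 0.25 in ORX+DHT against ORX (adjusted p 0.0558 by limma), and groups did not overlap in either. Gapdh and Pgam1 have many near-identical pseudogene copies, so their counts are uncertain. The second Aldoa row (ENSMUSG00000114515, chr7:126800790-126809108) lies just upstream of the main one (ENSMUSG00000030695, chr7:126795234-126800751) and held 46.2 to 89.6 normalised counts.

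The response to dihydrotestosterone was read from ORX+DHT against ORX muscle, where neither group includes Control 1. Of the 34 rows tested, 8 rose and 1 fell (limma, adjusted p under 0.05 over all 8770 genes tested). Among all genes tested 2.38% were called higher and 1.7% lower. The share was larger at higher expression: of 3962 genes with a mean of at least 50, 7.87% were called, 203 higher and 109 lower. With that filter 8 of 30 member rows were called higher and 1 lower. The balance of calls depended on scaling. With the deposited scaling 209 genes were called higher and 149 lower. The counts were 149 and 214 with total-count scaling, and 161 and 166 with quantile normalisation. The members called were then 5 higher and 2 lower, and 6 higher and 2 lower. Without ORX+DHT replicate 1 the count of members was 4 higher and 0 lower, and without ORX+DHT replicate 3 it was the same; with all 9 libraries in 1 fit it was 3. Fbp2 (fructose bisphosphatase), Ppp1r3c (a glycogen-targeting phosphatase subunit), Slc16a3 (lactate export) and Hk2 (glucose phosphorylation) each rose by more than 1.5-fold. Slc2a4 (glucose uptake), Gapdh, Tpi1 and Pgk1 rose by less than that. Ldhb, the lactate dehydrogenase subunit of heart and slow muscle, fell. The 34 rows had a median log2 fold change of 0.18, with 24 above 0 and 10 below, against a median of 0.01 over all genes tested. Groups did not overlap, with ORX+DHT higher, for 18 rows (10.4% of all genes) and, with ORX+DHT lower, for 4 rows (9.13% of all genes).

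Slc16a3 (ENSMUSG00000025161, chr11:120948480-120960868) encodes MCT4, the lactate exporter of fast fibres. It stood at 521, 530 and 465 normalised counts in ORX libraries and at 1059, 972 and 933 in ORX+DHT libraries. Every ORX+DHT library lay above every ORX library, and the 2 Control libraries other than Control 1, at 865 and 751, lay between them. The log2 fold change was 0.97 (SE 0.09, adjusted p 1.02e-06 by limma, n = 3 a group).

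Hk2 (ENSMUSG00000000628, chr6:82725025-82774454) encodes the insulin-regulated hexokinase of muscle. ORX libraries held 747, 752 and 627 normalised counts and ORX+DHT libraries 1234, 1122 and 1245, a log2 fold change of 0.76 (SE 0.09, adjusted p 1.95e-05 by limma). Its ORX+DHT values were above those of all 6 other libraries, since Control libraries held 733, 869 and 926. Hk1, the hexokinase of most other tissues, held 12.5 normalised counts in Control 1 and 20.3 to 29.8 in the other 8 libraries, and its log2 fold change was -0.06 (SE 0.22).

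Fbp2 (ENSMUSG00000021456, chr13:62836877-62858422) encodes muscle fructose bisphosphatase, which runs the phosphofructokinase step backwards on the way to glycogen. It held 46.1, 34.1 and 44.7 normalised counts in ORX and 87.1, 82.2 and 106 in ORX+DHT libraries. The log2 fold change of 1.13 (SE 0.16, adjusted p 0.00025 by limma) was the highest of the set, at a low level of expression. Controls 2 and 3 held 36.5 and 36.7 and resembled ORX libraries, while Control 1 held 83.7.

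Ppp1r3c (ENSMUSG00000067279, chr19:36731731-36736653) encodes a subunit that brings protein phosphatase 1 to glycogen and so favours synthesis. ORX libraries held 463, 640 and 342 normalised counts and ORX+DHT libraries 1037, 1131 and 689. The groups did not overlap, but replicates of this gene were more spread out than those of Slc16a3 or Hk2, and the lowest ORX+DHT value was close to the highest ORX value. The log2 fold change was 0.996 (SE 0.18, adjusted p 0.00274 by limma). The call was lost with robust variance shrinkage (adjusted p 0.301) and with DESeq2 on the recovered reads (adjusted p 0.108).

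**Figure D2:**
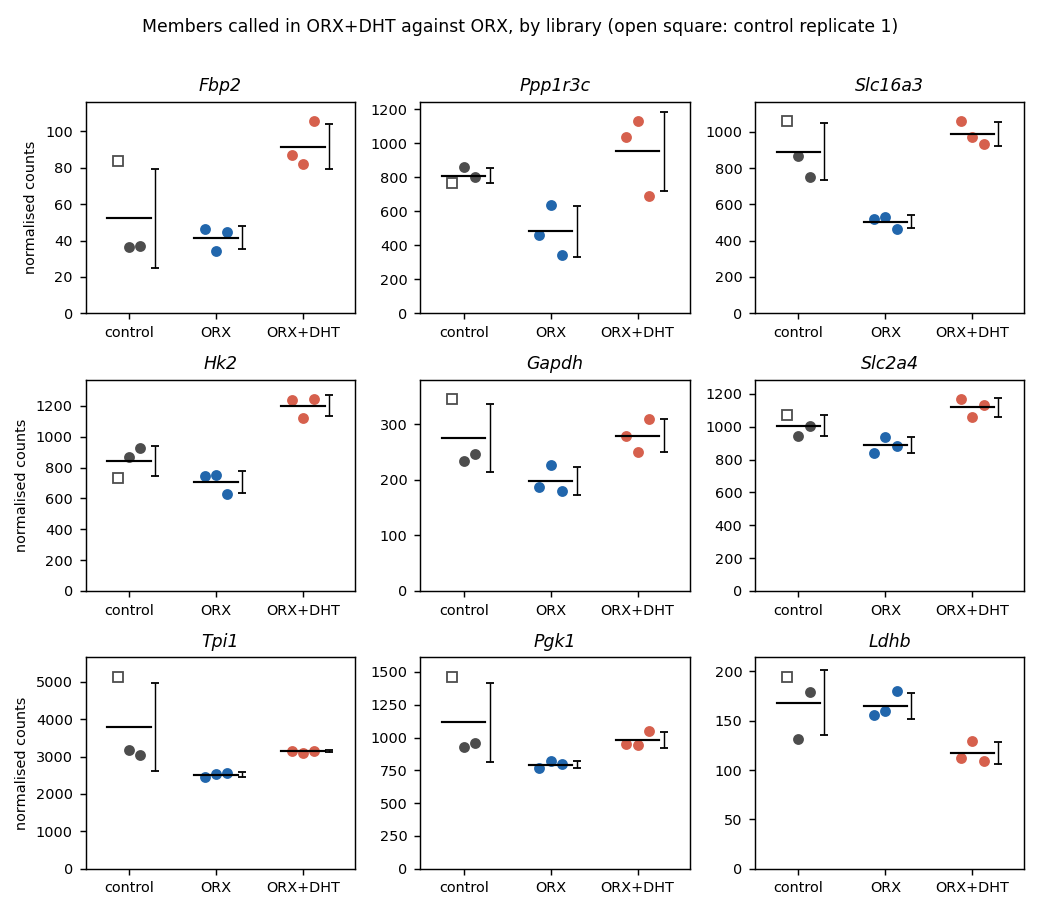
Normalised counts (vertical axes, from 0) of the 9 members called in ORX+DHT against ORX, 1 point per library, with a bar at each group mean and an error bar of 1 SD beside it. The open square is Control replicate 1, which is the highest of the controls for Fbp2, Slc16a3, Gapdh, Slc2a4, Tpi1, Pgk1 and Ldhb and the lowest for Ppp1r3c and Hk2.

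The sequences before a listed start site of each of these 4 genes are shown because they rose by more than 1.5-fold together. They are from RefSeq's GRCm38.p6 promoter table, 5′ to 3′ on the gene's strand, up to 250 bases and ending before any base that GENCODE M21 places in an exon. For Slc16a3 the listed site lies inside the gene interval given above. Its window is thus not upstream of the whole gene, as those of Fbp2, Ppp1r3c and Hk2 are. Capitals mark matches on either strand to the androgen receptor half-site AGAACA, to the hypoxia response core ACGTG, of which the E-box CACGTG is an extended palindromic form, and to the GC box GGGCGG. A match on the opposite strand appears as its reverse complement.
Fbp2, chr13:62858423-62858650, minus strand: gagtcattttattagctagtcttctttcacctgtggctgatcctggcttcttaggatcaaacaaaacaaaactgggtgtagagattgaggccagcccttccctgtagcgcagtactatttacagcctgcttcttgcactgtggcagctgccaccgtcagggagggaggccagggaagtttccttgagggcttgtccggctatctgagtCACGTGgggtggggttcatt
Ppp1r3c, chr19:36736654-36736854, minus strand: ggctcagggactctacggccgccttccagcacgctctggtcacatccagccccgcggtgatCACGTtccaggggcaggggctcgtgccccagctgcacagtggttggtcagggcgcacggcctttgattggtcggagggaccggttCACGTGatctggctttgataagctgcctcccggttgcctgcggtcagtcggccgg
Slc16a3, chr11:120948817-120949052, plus strand: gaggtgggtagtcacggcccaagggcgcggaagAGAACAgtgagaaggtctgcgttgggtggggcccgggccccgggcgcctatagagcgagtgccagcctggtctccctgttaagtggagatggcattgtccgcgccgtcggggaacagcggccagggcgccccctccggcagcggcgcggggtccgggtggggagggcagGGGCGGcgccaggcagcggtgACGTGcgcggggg
Hk2, chr6:82774455-82774704, minus strand: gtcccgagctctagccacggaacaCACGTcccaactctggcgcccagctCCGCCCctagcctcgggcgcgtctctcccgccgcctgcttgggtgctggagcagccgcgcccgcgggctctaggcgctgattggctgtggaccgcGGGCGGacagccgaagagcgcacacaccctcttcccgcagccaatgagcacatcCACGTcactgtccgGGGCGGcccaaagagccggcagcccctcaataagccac

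All 4 windows hold the ACGTG core, as a full E-box in Fbp2 and, beside a separate core, in Ppp1r3c. Slc16a3 alone holds an AGAACA half-site, in the window that lies inside its gene interval. Promoters were listed for 35 of the 37 symbols, 47 windows of 250 bases in all, some of them overlapping, and none for Gpd1 and Slc2a4. ACGTG occurred in 18 of the 47 windows and in 16.6% of all 32851 mouse windows. The half-site AGAACA occurred in 9 windows and in 16.1% of all. As an inverted repeat with 3 bases between it occurred in 0 and in 0.00913% of all. The E-box CACGTG occurred in 6 windows (6.02% of all), the GC box in 23 (32.7% of all) and the TATA box TATAAA in 1 (12.4% of all). The members' windows were richer in G and C, with a median of 60% against 52.4%, which alone changes how often such letters occur. A match describes the letters and not a bound site.

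The other transporters had smaller values than Slc16a3. Slc2a4, the transporter GLUT4, held 840, 940 and 884 normalised counts in ORX and 1169, 1056 and 1129 in ORX+DHT libraries, and it rose by a log2 fold change of 0.33 (SE 0.08, adjusted p 0.0204 by limma). The adjusted p was 0.0557 without ORX replicate 1, 0.127 without ORX+DHT replicate 1 and 0.0744 without ORX+DHT replicate 3. Slc16a1, for the lactate transporter MCT1 of oxidative fibres, had a log2 fold change of 0.35 (SE 0.13, adjusted p 0.165 by limma) with groups that did not overlap. Slc2a1, for the basal glucose transporter GLUT1, held 5.07 to 15.8 normalised counts over all libraries, too few for a fold change to be read.

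Of the 7 tested genes of lower glycolysis, from triose phosphate to pyruvate, 3 rose and the other 4 did not pass the test. Tpi1, triose phosphate isomerase, held 2447, 2548 and 2560 normalised counts in ORX and 3149, 3106 and 3156 in ORX+DHT libraries. Replicates of both groups were close together, and the log2 fold change was 0.32 (SE 0.07, adjusted p 0.0123 by limma). Quantile normalisation reduced it to 0.05 (adjusted p 0.776), and the total read count as scaling to 0.24 (adjusted p 0.0601). Without ORX replicate 2, ORX+DHT replicate 1 or ORX+DHT replicate 3 the adjusted p was 0.0661, 0.0599 and 0.0575. Pgk1, phosphoglycerate kinase, went from 765, 823 and 795 to 952, 945 and 1047, a log2 fold change of 0.30 (SE 0.08, adjusted p 0.0353 by limma), and kept its call in 12 of 23 alternatives. It lost the call without any 1 of the 6 libraries, with an adjusted p of 0.0617 to 0.169. Gapdh went from 187, 227 and 179 to 279, 250 and 310, a log2 fold change of 0.50 (SE 0.11, adjusted p 0.0136 by limma). Without ORX+DHT replicate 1 or 3 the adjusted p was 0.0653 and 0.0776.

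The most abundant enzymes of the pathway did not pass the test with the settings used throughout. Eno3 had a log2 fold change of 0.25 (SE 0.07, adjusted p 0.0794 by limma), Aldoa 0.23 (SE 0.08, adjusted p 0.164), Pgam2 0.19, Pfkm 0.18, Pkm (muscle pyruvate kinase) 0.18, and Ldha (the lactate dehydrogenase subunit of fast muscle) 0.08. Eno3 and Aldoa passed as higher with robust variance shrinkage (adjusted p 0.0118 and 0.0148) and with the length correction (adjusted p 0.0214 and 0.0360). ORX+DHT libraries lay above all ORX libraries for Eno3, Aldoa, Pgam2 and Pkm, and overlapped them for Pfkm and Ldha. With quantile normalisation the values of Aldoa, Pgam2, Pkm and Ldha turned slightly negative, at -0.01, -0.06, -0.04 and -0.04. Gpi1, for the isomerase between the hexokinase and phosphofructokinase steps, had a log2 fold change of 0.09 (SE 0.07). The phosphofructokinases of other tissues, Pfkl and Pfkp, held 10 to 22.5 normalised counts and had log2 fold changes of -0.16 (SE 0.26) and 0.37 (SE 0.27), and the second Aldoa row one of -0.04.

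Glycogen genes other than Ppp1r3c did not pass the test with the deposited scaling. Pygm held 12238 to 13796 normalised counts after ORX and 14075 to 15021 after ORX+DHT, groups that did not overlap, with a log2 fold change of 0.14 (SE 0.08, adjusted p 0.464 by limma). Among genes of synthesis, log2 fold changes were 0.20 for Gys1 (muscle glycogen synthase), 0.19 for Ugp2 (which makes UDP-glucose), 0.07 for Gbe1 (the branching enzyme, -0.01 with total-count scaling) and -0.02 for Gyg (glycogenin, the primer). The 3 subunits of phosphorylase kinase pointed different ways, with 0.22 for Phkb, -0.14 for Phka1 and -0.21 for Phkg1, and groups did not overlap for any of them. None passed with the deposited scaling, while Phkg1 was called lower with total-count scaling (-0.29, adjusted p 0.0491) and with quantile normalisation (-0.27, adjusted p 0.0410). Ppp1r3a, the other muscle subunit that targets the phosphatase to glycogen, had a log2 fold change of 0.10 (SE 0.09).

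At the pyruvate branch, Ldhb held 156, 159 and 180 normalised counts in ORX and 112, 130 and 110 in ORX+DHT libraries. It fell by 0.49 on the log2 scale (SE 0.11, adjusted p 0.0172 by limma), and the call was lost in 6 of 23 alternatives, among them DESeq2 and the fits without ORX replicate 2 or 3 or ORX+DHT replicate 1 or 3 (adjusted p 0.0519, 0.0742, 0.0872 and 0.073). Eno1, the enolase of other tissues, went the same way at 80.5, 90.4 and 85.2 against 66.9, 65.7 and 68.2, a log2 fold change of -0.34 (SE 0.13, adjusted p 0.195 by limma). Summed markers of slow fibres, which rest on 4 of 8 genes with a mean of at least 10, were 287 to 327 after ORX and 159 to 249 after ORX+DHT. Of these 4 only Myl3 had groups that did not overlap, at 117 to 183 and 66.2 to 104. Summed markers of fibroblasts were 4214 to 5549 after ORX and 2353 to 3284 after ORX+DHT, with all 5 genes at a mean of at least 10. Among these 5, Col1a1 and Col1a2 were lower without overlap, while Col3a1, Dcn and Pdgfra overlapped. Dcn held 376, 288 and 529 after ORX and 308, 374 and 448 after ORX+DHT. Summed markers of tendon were 446 to 733 after ORX and 308 to 377 after ORX+DHT. The part of these cells in the lower Ldhb and Eno1 was not tested. In whole muscle, fewer cells of a type and less RNA per cell cannot be told apart. Pdha1, a subunit of pyruvate dehydrogenase, and Gpd1, for the glycerol phosphate shuttle, had log2 fold changes of 0.20 and -0.08.

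**Figure D3:**
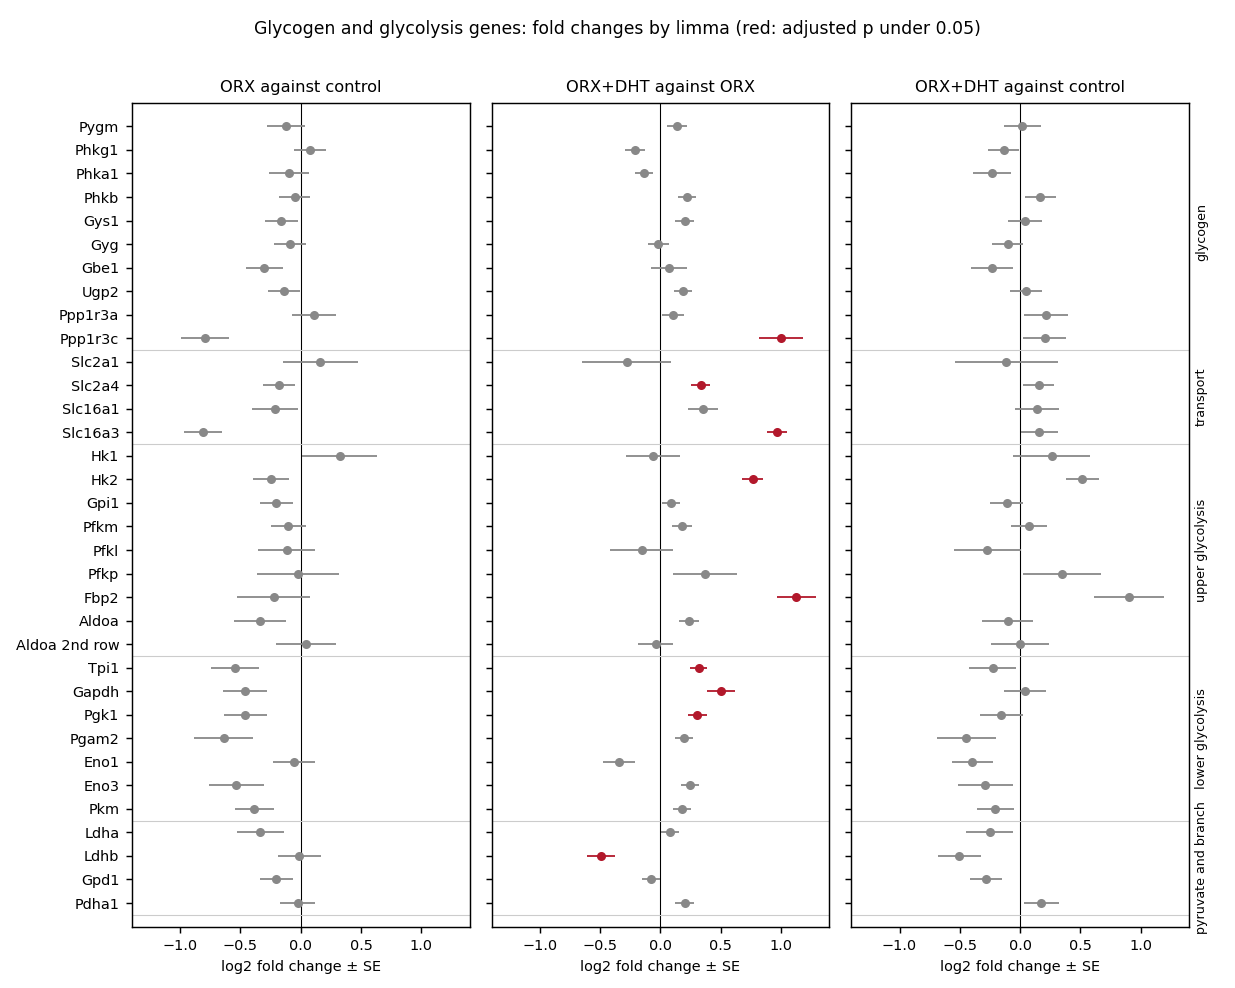
Log2 fold change with its SE (horizontal axes) of the 34 tested rows in the 3 comparisons, ordered by role; red points passed limma's adjusted p of 0.05. The 9 red points all stand in the middle panel, and in the left one 29 of 34 points lie below 0 with the deposited scaling (18 of 34 with total-count scaling).

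Orchiectomy alone was addressed by ORX against Control muscle, a comparison that shares its ORX libraries with the previous one. None of the 34 rows was called by limma (0 rows). By limma 8 rows had an unadjusted p under 0.05, as did 622 of all 8631 genes tested. On the recovered reads edgeR called 0 rows as well, while DESeq2 called 1, Slc16a3, as did limma without Control 1. Over all 8631 genes tested 5 were called, or 0.0579%. Log2 fold changes of the members were negative for 29 rows and positive for 5, with a median of -0.17 against -0.01 over all genes. ORX libraries lay below all Control libraries for 14 rows (8.06% of all genes) and above them for 0 (6.28% of all genes). Without Control 1, ORX libraries lay below the remaining 2 for 20 rows (14.9% of all genes) and above them for 0 (12.2% of all genes).

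The balance of signs depended on scaling. When libraries were scaled to their total counts, the median of all genes moved to 0.15 and the members' median to -0.01, which is 0.16 below that of all genes, with 18 rows below 0 and 16 above. With quantile normalisation the members' median was -0.04, with 21 rows below 0. The sign turned under 1 of these 2 scalings or both for 12 rows, among them Aldoa, Pfkm, Pygm and Ugp2, and for none of the 8 rows with the lowest values.

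Slc16a3 had the lowest value of the set. Control libraries held 1060, 865 and 751 normalised counts against 521, 530 and 465 in ORX libraries, with no overlap, and the log2 fold change was -0.81 (SE 0.16, adjusted p 0.128 by limma). Without Control 1 it was -0.67 and passed the test (adjusted p 0.00659), and it also passed with the length correction (adjusted p 0.0404), with all 9 libraries in 1 fit (adjusted p 0.0189) and with DESeq2 (adjusted p 0.00579). Ppp1r3c held 769, 859 and 801 in Control and 463, 640 and 342 in ORX libraries, a log2 fold change of -0.79 (SE 0.20, adjusted p 0.333 by limma) that was -0.83 without Control 1 (adjusted p 0.053). For this gene Control 1 was the lowest control.

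All 7 tested genes of lower glycolysis had negative values, with a median log2 fold change of -0.46, and none passed the test. Pgam2 held 6468, 3286 and 3064 normalised counts in Control and 2405, 2659 and 2692 in ORX libraries. Its log2 fold change of -0.64 (SE 0.24, adjusted p 0.669 by limma) became -0.30 without Control 1. Tpi1 went from -0.55 to -0.30 and Eno3 from -0.53 to -0.24 in the same way. These values thus moved by more than 1.5 times with 1 library, while ORX libraries lay below Controls 2 and 3 also without it for Pgam2, Tpi1, Eno3, Pgk1, Gapdh and Pkm. For Gapdh, Pgk1, Pkm and Eno1 the values with all libraries were -0.46, -0.46, -0.38 and -0.05. Fbp2 turned from -0.22 to 0.17 without Control 1, neither of which passed the test. With Control 1 left out and the length correction together, Slc16a3, Tpi1 and Ppp1r3c passed the test (adjusted p 0.00326, 0.0478 and 0.0418).

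The other members were nearer to 0 and none passed the test. Ldha and Aldoa stood at -0.33 (SE 0.20) and -0.34 (SE 0.21), and with quantile normalisation at -0.08 and 0.03. Among glycogen genes, values ran from -0.30 for Gbe1, with groups that did not overlap, over -0.16 for Gys1, -0.14 for Ugp2, -0.12 for Pygm, -0.10 for Phka1, -0.09 for Gyg and -0.05 for Phkb to 0.08 for Phkg1 and 0.11 for Ppp1r3a. Among transporters, Slc16a1 stood at -0.21, Slc2a4 at -0.18 and Slc2a1 at 0.16. In upper glycolysis, Hk2 stood at -0.25 (-0.34 without Control 1), Gpi1 at -0.20, Pfkl at -0.12, Pfkm at -0.10, Pfkp at -0.02, the second Aldoa row at 0.04 and Hk1 at 0.32 (SE 0.31). At the pyruvate branch, Gpd1 stood at -0.20, Pdha1 at -0.03 and Ldhb at -0.01.

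**Figure D4:**
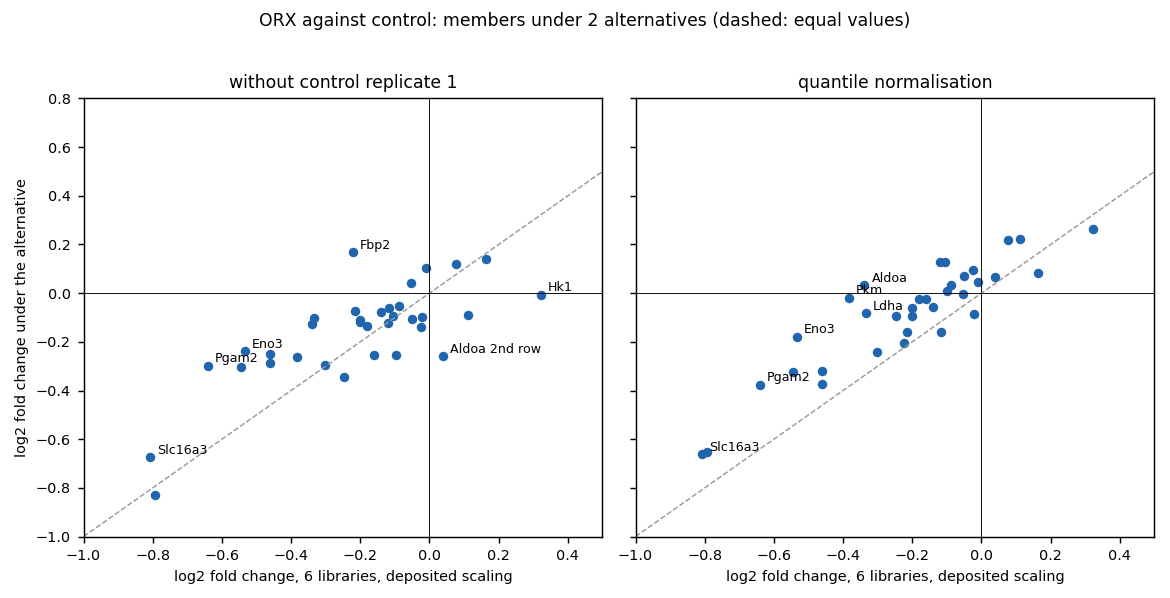
Log2 fold change of the 34 tested rows in ORX against control with the deposited scaling and all 6 libraries (horizontal axes) and under an alternative (vertical axes): without Control replicate 1 on the left and with quantile normalisation on the right. Points above the dashed line of equal values moved upwards, as Pgam2 did from -0.64 to -0.30 on the left. Slc16a3 moved from -0.81 to -0.67 on the left and to -0.66 on the right.

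ORX+DHT against Control asks where muscle given the androgen ended relative to muscle with its testes. No row passed limma's test (0 rows), edgeR and DESeq2 also called 0, and 0.0349% of all genes tested were called. By limma 4 rows had an unadjusted p under 0.05, as did 557 of all 8595 genes tested. The members' median log2 fold change was -0.05, with 16 rows above 0 and 18 below. ORX+DHT libraries lay above all Control libraries for Hk2 and Phkb (2 rows, 6.86% of all genes) and below them for Ldhb, Eno1 and Gpd1 (3 rows, 7.12% of all genes). Hk2 had a log2 fold change of 0.52 (SE 0.14, adjusted p 0.624 by limma) and Fbp2 of 0.90 (SE 0.29, adjusted p 0.736 by limma). Without Control 1 these were 0.42 (adjusted p 0.0204) and 1.29 (adjusted p 0.00123), both past the threshold, and Phka1 passed as lower, at -0.39 (adjusted p 0.0428). Slc16a3 and Ppp1r3c were at 0.16 (SE 0.15) and 0.20 (SE 0.18), neither past the threshold with or without Control 1. Lower glycolysis ranged from -0.45 for Pgam2 to 0.04 for Gapdh, and without Control 1 Pgam2 stood at -0.10, Tpi1 at 0.02 and Eno3 at 0.01. Ldhb, at -0.50 (SE 0.18), Eno1, at -0.40 (SE 0.17), and Gpd1, at -0.28 (SE 0.13), had groups that did not overlap, and the values of the remaining glycogen members lay between -0.23 (Phka1 and Gbe1) and 0.22 (Ppp1r3a).

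For steps served by 2 genes, the ratio of isoforms within a library nearly cancels that library's scaling factor, though not an effect of transcript length. Ratios were taken after adding 1 to each value, so the factor does not cancel fully for low isoforms. Over 9 pairs and 3 comparisons, 27 exact two-sided permutation tests were run, for which 3 libraries against 3 cannot give a p under 0.1 and the smallest adjusted p was 0.3. Groups did not overlap in 9 of the 27, which share libraries and genes. The share over other gene pairs was not computed, so this count has no background to be read against. The log2 ratio of Slc16a1 to Slc16a3 was -2.88, -3.17 and -2.62 in Control, -2.44, -2.17 and -2.28 in ORX and -3.10, -2.96 and -2.66 in ORX+DHT libraries. ORX stood above both other groups, by 0.59 over Control and 0.61 over ORX+DHT (exact permutation p = 0.1 each), and Control and ORX+DHT overlapped. The ratio of Hk1 to Hk2 followed the same order, with means of -5.30, -4.73 and -5.56 in Control, ORX and ORX+DHT, as did Eno1 to Eno3, with means of -7.15, -6.66 and -7.26. Without Control 1 the ORX excess over Control was 0.60, 0.34 and 0.28 for these 3 pairs, still with no overlap. Ldhb to Ldha had means of -5.08, -4.76 and -5.33, and its ORX and ORX+DHT groups did not overlap. Slc2a1 to Slc2a4 was -6.04, -6.01 and -5.88 after ORX and -7.59, -6.09 and -6.07 after ORX+DHT, a mean difference of -0.61 with no overlap, in which ORX+DHT replicate 1 stands far below the other libraries. Pgam1 to Pgam2 was 0.87 higher in ORX+DHT than in Control libraries, with no overlap, and 0.44 higher without Control 1, with few reads of Pgam1 in any library. With all libraries and 0 or 10 added to each value, this difference was 0.95 or 0.62.

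**Figure D5:**
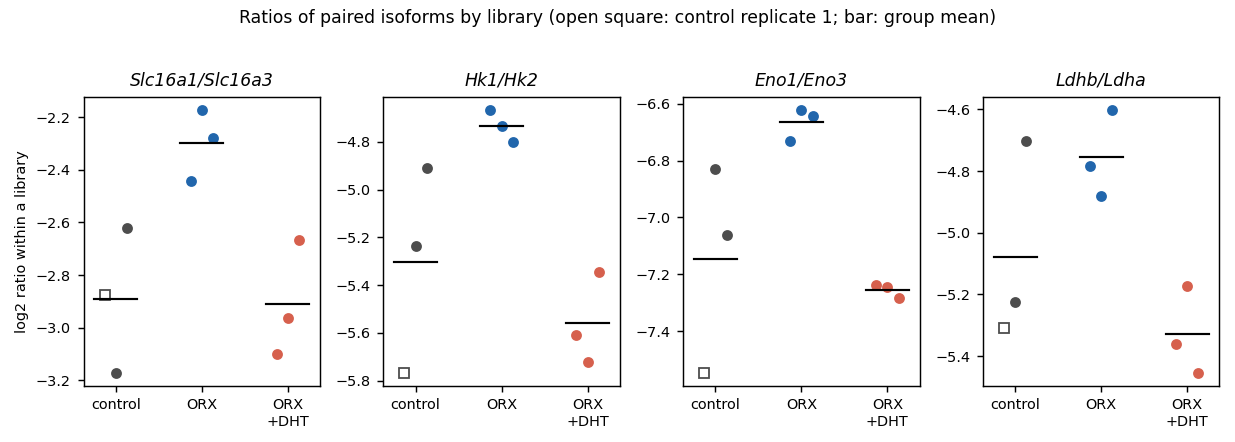
Log2 ratio of the isoform of other tissues or fibres to the fast-muscle isoform within each library (vertical axes), with a bar at the group mean and an open square for Control replicate 1. Of the 9 pairs 4 are shown. The 3 ORX libraries lie above all ORX+DHT libraries in the 4 pairs shown, and above all Control libraries for the first 3.

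Around these members, 62 of 69 other genes of the same pathways were found in the tables. In ORX+DHT against ORX, 6 of the 50 tested rose and 3 fell, beside 2.38% and 1.7% of all genes tested. Slc2a3, among the 6, met the filter only through its ORX+DHT libraries. Some regulators sit close to steps described above. Pfkfb3, which makes the activator of phosphofructokinase, held 209, 257 and 261 normalised counts in Control, 715, 811 and 553 in ORX and 340, 280 and 506 in ORX+DHT libraries. It was the only one of 48 such genes called in ORX against Control, where it rose by a log2 fold change of 1.5 (adjusted p 0.00593 by limma, 0.0909 and 0.0956 without ORX replicate 1 or 2), and it fell with dihydrotestosterone by 0.91 (adjusted p 0.00259), a call that was lost with robust variance shrinkage (adjusted p 0.259) and with DESeq2 (adjusted p 0.122). Its direction was thus opposite to that of Hk2 and Slc16a3 in ORX+DHT against ORX. Tbc1d1, which controls the movement of GLUT4 to the surface, rose by 0.87 (adjusted p 0.0007), and Prkag3, a regulatory subunit of the energy-sensing kinase AMPK in fast muscle, fell by 0.67 (adjusted p 0.00573).

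Other called genes lie beside the members along the route. Bsg, the chaperone that carries lactate transporters to the membrane, rose by 0.42 (adjusted p 0.00324 by limma), and Mpc2, a subunit of the carrier that takes pyruvate into mitochondria, by 0.40 (adjusted p 0.0136, and 0.0514 and 0.103 without ORX replicate 2 or ORX+DHT replicate 1). Tigar, a phosphatase that can break down the activator made by Pfkfb3, rose by 0.53 (adjusted p 0.00524 by limma). Gpd2, the mitochondrial partner of Gpd1 in the glycerol phosphate shuttle, fell by 0.65 (adjusted p 5.98e-05). Slc2a3, for the glucose transporter GLUT3, rose by 1.98 (adjusted p 0.00889 by limma, and 0.0614 without ORX+DHT replicate 2). It went from 1.96, 4.26 and 5.79 normalised counts to 25.3, 21.3 and 9.88, so few reads that the size of the rise is poorly set. All its ORX values were under the filter's mean of 10, so only its ORX+DHT libraries brought it into the test. In ORX+DHT against Control none of the 50 related genes passed limma's test (0 genes). Of these, 6 had an unadjusted p under 0.05 by limma, as did 557 of all 8595 genes tested.

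Markers of other cell types varied with the groups as follows. Summed markers of fast fibres, 9 of 10 with a mean of at least 10, spanned 258584 to 282116 in Control, 226395 to 235619 with ORX and 226627 to 240530 with ORX+DHT, so as a sum they separated Control from the other groups and not ORX from ORX+DHT. Single genes of that list moved apart. Myh1, the myosin heavy chain of IIx fibres, held 25175, 22901 and 19154 normalised counts in ORX and 32078, 29487 and 31006 in ORX+DHT libraries, and Tnni2, fast troponin I, 8895 to 10418 and 11856 to 13537. Pvalb, the calcium buffer of fast fibres, lay the other way, at 11533 to 13529 after ORX and 8841 to 11380 after ORX+DHT. Summed markers of skeletal muscle as a whole were 216014 to 271573 in Control, 178948 to 188317 with ORX and 190135 to 211357 with ORX+DHT. As a sum all 3 groups were apart, and ORX+DHT lay above ORX. Most of that last difference was in Acta1, at 46189.8 to 46910.3 after ORX and 59434.5 to 68734.6 after ORX+DHT. Mb also lay higher after ORX+DHT without overlap, while Myh4, Ckm, Tnnt3 and Mylpf overlapped. Myh4 held 72718 to 85595 after ORX and 72361 to 81124 after ORX+DHT. Summed fibroblast markers were 1908 to 3850 in Control, below all ORX libraries, though Col3a1, Dcn and Pdgfra overlapped between Control and ORX. Markers of nerve and Schwann cells spanned 141 to 150 in Control, 190 to 216 with ORX and 141 to 191 with ORX+DHT. Endothelial markers spanned 706 to 889 over all libraries, and no listed marker gene of any type was at 0 in all 9. The part of cell makeup in the members' differences was not tested.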

How the data were processed

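The authors deposited normalised gene counts (a signal: read counts divided by 1 factor per library) in 2 tables, control with ORX and ORX with ORX+DHT. Per the submitters' processing notes, Trim Galore 0.6.7, HISAT2 2.2.1, featureCounts 2.0.1, DESeq2 1.36.0 and GRCm38 were used; per the labels' protocols, libraries were polyA-selected, strand-keeping and made from 500 ng of RNA. The control columns are called sham in the tables and were matched to Control by replicate number. No column was unmapped (0 columns). All values (100%) were whole multiples of a library's step within 0.001, so reads were recovered by division; for Control 3 the step is near 1 and could not be told from rounding. Intervals on such reads would cover counting error only.

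Each table was fitted separately with limma 3.58.1 in R 4.3.3 (lmFit, eBayes with trend) on log2(value + 1), leaving out genes whose mean was under 10, with Benjamini-Hochberg adjustment over all genes; genes were called at an adjusted p under 0.05. This scale understates changes of low genes. ORX+DHT against control used the 14300 shared genes, rescaled together over 9 libraries, and per-library values are printed on that joint scale. Since the tables share ORX libraries, no overlap between comparisons is given. Alternatives were other scalings, pseudocounts, filters and fits, edgeR 4.0.16 and DESeq2 1.42.0 on recovered reads, each library left out, the replicate number as a block and, chosen after seeing the data, a correction for transcript length (longest principal transcript of GENCODE M21). The fits were tested on simulated data. Named genes were all members, and the related genes called in any comparison, of which 1 is not reported here. The members, related genes, markers and motifs were chosen with earlier results of these data known.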

Additional observations from a re-analysis of the deposited data

How the results depend on the processing

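In ORX+DHT against ORX, where 9 members and 358 genes were called, Hk2 and Slc16a3 kept their call in 23 of 23 alternatives, Fbp2 in 22, Ppp1r3c in 21, Gapdh in 20, Slc2a4 in 18, Tpi1 and Ldhb in 17 and Pgk1 in 12, and no called value changed sign. With all 9 libraries in 1 fit, which brings in the wider spread of the controls, 3 members and 124 genes were called; DESeq2 called 222 genes. Leaving out 1 library gave 4 to 8 members, the fewest (4) without ORX+DHT replicate 1 or 3, and 223 to 350 genes. The replicate block called 571 genes and 13 members, and the length correction with the replicate block 581 genes and 14 members. Same-numbered ORX and ORX+DHT libraries deviated together only weakly, with correlations of 0.06, 0.06 and 0.15. These lay above those of all differently numbered pairs of the same groups, at -0.09 to 0.02. Same-numbered Control and ORX libraries did not deviate together (-0.16, 0.06 and -0.11). The numbers were not taken to pair the samples. A replicate effect shared by ORX and ORX+DHT was not tested beyond the replicate block.

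In ORX against control, 0 members were called and 5 genes. Without a filter 16 genes were called, with all 9 libraries in 1 fit 23 genes and 1 member, with DESeq2 30 and 1, and with the length correction 23 and 1. The length correction with the replicate block gave 11 genes, and the length correction without Control 1 gave 75 genes and 3 members. Leaving out 1 library gave 1 to 51 genes and 0 to 1 members, the highest of both without Control 1; without Control 3 it was 21 genes, and without ORX 1, 2 or 3 it was 1, 1 and 2. In ORX+DHT against control, 0 members and 3 genes were called. Total-count scaling and quantile normalisation each gave 6 genes, all 9 libraries in 1 fit 11, DESeq2 15, the length correction 21 with 1 member (Fbp2), the length correction with the replicate block 6, and the length correction without Control 1 70 with 3 members. Leaving out 1 library gave 0 to 66 genes and 0 to 3 members, the highest without Control 1.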
